A study of Homo sapiens with 24 samples.

Results

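The transcripts of the cell cycle cyclins were followed in osteosarcoma cells that carry or lack ID3 and that were given a histone deacetylase inhibitor. The 10 genes CCND1, CCND2, CCND3, CCNE1, CCNE2, CCNA1, CCNA2, CCNB1, CCNB2 and CCNF were taken by symbol from the 57820 genes counted in each library, and each symbol named a single row. Cyclins are the regulatory subunits that switch on cyclin-dependent kinases (CDKs), and most of them are made and destroyed in step with the cell cycle. D-type cyclins pair with CDK4 and CDK6 in G1 and link the cycle to growth signals, E-type cyclins pair with CDK2 at the start of DNA synthesis, cyclin A2 serves S phase and G2, and the B-type cyclins drive CDK1 into mitosis. Cyclin F is an F-box protein that directs a ubiquitin ligase and does not activate a CDK, and cyclin A1 is best known from the germ line.

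RNA was sequenced from 24 libraries, 3 biological replicates in each of 8 groups. WT and ID3-KO AID-DIvA cells were either untreated, or given mocetinostat, which inhibits class I histone deacetylases, for 24 h and then kept for 24 h in fresh medium (recovered cells). WT and ID3-KO U2OS cells were either untreated or given mocetinostat and collected before any recovery (treated cells), a stage inferred from the series text and the methods rather than from the sample labels. U2OS is a human osteosarcoma line, and AID-DIvA cells are U2OS cells with an integrated vector for the restriction enzyme AsiSI, so all 4 AID-DIvA groups carry it. The labels of these libraries name no tamoxifen, the agent that sends AsiSI to the nucleus. ID3 encodes a helix-loop-helix protein that binds E proteins and keeps them off DNA. The dose of mocetinostat in the RNA-seq experiment and the number of clones behind the ID3-KO cells are not given in the sources used here. For the AID-DIvA libraries the labels give opposite treatments in the title and in the treatment field, and groups here follow the title, which also matches the file names. Recovery and the AID-DIvA vector coincide in this design and cannot be told apart, so levels were tested within a line. Orders of all 8 groups and comparisons of responses between stages are also given, and in these the line changes as well.

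Total counts lay between 37878751 and 76906266 per library in AID-DIvA cells and between 46285533 and 70692114 in U2OS cells, and levels are given in CPM, a library's counts rescaled to a common total, scaled within a line. ID3 transcripts were still counted in every library of the knockout, at 31.5, 30.5 and 37.5 CPM in untreated ID3-KO AID-DIvA cells against 46.8, 49.998 and 50.2 CPM in untreated WT cells, and at 33.4, 31.2 and 30.3 CPM against 84.4, 56.1 and 53.9 CPM in untreated U2OS cells. ID3 was lower in ID3-KO than in WT cells in all 4 comparisons (log2 differences from -1.21 to -0.56), which fits the labels by level only, since a transcript with a disrupted reading frame can still be counted. ID3 also rose in recovered AID-DIvA cells, 2.37-fold in WT (adjusted p = 9.1e-08) and 1.86-fold in ID3-KO (3.8e-05). Recovered ID3-KO cells, at a mean of 61.8 CPM, lay above untreated WT cells, at 49.0 CPM. In treated U2OS cells the rise was called in ID3-KO (log2 difference 0.22, adjusted p = 0.021), although treated (42.1, 31.6 and 36.5 CPM) and untreated libraries overlapped. In WT U2OS cells (0.40, adjusted p = 0.088) it was called only without replicate 1 of the untreated cells (0.63, 3.7e-12). FPKM is a library's counts over its total, per kilobase of exon, without the scaling of CPM within a line. Of the osteoblast lineage markers, COL1A1, SPARC and RUNX2 had at least 80.3, 173 and 1.53 FPKM in every library. COL1A2, SP7, IBSP, BGLAP and ALPL reached at most 0.132, 0.0310, 0.414, 0.594 and 2.21 FPKM. The mesenchymal markers VIM and CDH2 had at least 88.4 and 20.3 FPKM. Of the epithelial markers, EPCAM had 1.71 to 4.44 FPKM and CDH1 at most 0.317. The leukocyte markers reached at most 0.274 FPKM and the endothelial marker CDH5 at most 0.166. The exception among replicates was replicate 1 of untreated WT U2OS cells, whose counts gave a chi-square per gene of 103 and 91.1 with the other two libraries of its group, where those libraries gave 4.32 with each other and no pair in another group exceeded 27.3. Without it the ID3 difference in untreated U2OS cells was -0.80 (adjusted p = 1.6e-17), and values without it are given beside the members' differences and the counts that use it.

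Promoter sequences of the members that fell together after recovery (CCNA2, CCNB1, CCNB2, CCNF) and of a member that rose (CCNE1) are shown because cell cycle promoters carry known elements. The sequences are the 250 bases before the transcription start in RefSeq on GRCh38.p14, read 5′ to 3′ along the gene. Capitals mark exact matches, on either strand, to the CCAAT box (CCAAT) and to the cell cycle genes homology region, or CHR (TTTGAA or TTTAAA).
CCNA2 (chr4:121823884-121824133, minus strand): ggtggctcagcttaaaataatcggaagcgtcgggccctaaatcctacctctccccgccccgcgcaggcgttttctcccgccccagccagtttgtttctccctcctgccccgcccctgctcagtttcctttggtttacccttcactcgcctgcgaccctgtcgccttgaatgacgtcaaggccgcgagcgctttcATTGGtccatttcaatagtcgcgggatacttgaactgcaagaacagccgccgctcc
CCNB1 (chr5:69166900-69167149, plus strand): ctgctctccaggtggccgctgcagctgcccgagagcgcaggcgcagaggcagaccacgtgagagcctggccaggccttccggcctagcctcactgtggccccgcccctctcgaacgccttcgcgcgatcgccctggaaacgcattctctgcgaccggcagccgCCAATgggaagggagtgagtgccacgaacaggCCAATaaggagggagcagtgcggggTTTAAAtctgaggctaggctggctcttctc
CCNB2 (chr15:59104896-59105145, plus strand): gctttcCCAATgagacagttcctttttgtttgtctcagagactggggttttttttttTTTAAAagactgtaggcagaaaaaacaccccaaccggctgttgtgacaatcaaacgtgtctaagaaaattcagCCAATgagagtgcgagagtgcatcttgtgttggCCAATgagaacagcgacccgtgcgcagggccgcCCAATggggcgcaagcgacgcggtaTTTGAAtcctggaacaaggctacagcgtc
CCNF (chr16:2429197-2429446, plus strand): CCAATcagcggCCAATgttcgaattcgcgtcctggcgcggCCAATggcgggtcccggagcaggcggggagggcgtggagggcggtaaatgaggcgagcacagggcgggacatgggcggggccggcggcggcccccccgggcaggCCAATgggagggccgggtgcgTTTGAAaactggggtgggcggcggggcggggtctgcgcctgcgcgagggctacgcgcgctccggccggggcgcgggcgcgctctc
CCNE1 (chr19:29811741-29811990, plus strand): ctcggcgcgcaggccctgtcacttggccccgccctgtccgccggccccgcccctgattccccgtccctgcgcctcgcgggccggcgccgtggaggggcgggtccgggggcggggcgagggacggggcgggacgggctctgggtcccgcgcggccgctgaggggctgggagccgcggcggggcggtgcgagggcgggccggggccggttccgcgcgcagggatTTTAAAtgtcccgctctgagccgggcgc

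CCNB2 held 2 CHR matches and 4 CCAAT matches in this window, CCNB1 held 1 and 2, and CCNF held 1 and 4. CCNA2 had no exact CHR match and 1 CCAAT match, read on the opposite strand. The last CHR matches of CCNB1 and CCNB2 began 30 and 29 bases before the start, and the CHR match of CCNE1, which had no CCAAT match, began 28 bases before it. Among all 35116 promoters of the same length, 21.9% held a CHR match, 32% a CCAAT match and 7.64% both, and 2.93% held 3 or more CCAAT matches. The E-box CANNTG, the element bound by E proteins, matched at 3 places in CCNB1 and at 1 place each in CCNE1, CCNA1 and the promoter of CCND3 at chr6:42048689-42048938, and 61.8% of all promoters held it. TTTNNCGC, an E2F site, matched only in CCNF among these promoters, at 5.92% of all promoters. The table held 9 promoters for 7 of the 10 members and none for CCND1, CCND2 and CCNE2. These matches describe letters, not bound factors.

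Per length, CCNB1 was the most abundant member and CCNA1 the least. The median over the 24 libraries was 138 FPKM for CCNB1, 69.6 for CCNB2, 48.3 for CCNA2, 42.5 for CCND1, 38.2 for CCNE1, 28.8 for CCND2, 22.6 for CCNF, 8.88 for CCND3 and 1.87 for CCNE2. On a scale common to all 24 libraries CCNE1 varied least across groups among members above 1 CPM, with a highest group mean 1.35 times its lowest, and CCNA2, CCND2 and CCND1 varied most, at 2.997, 2.97 and 2.497 times.

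**Figure D1:**
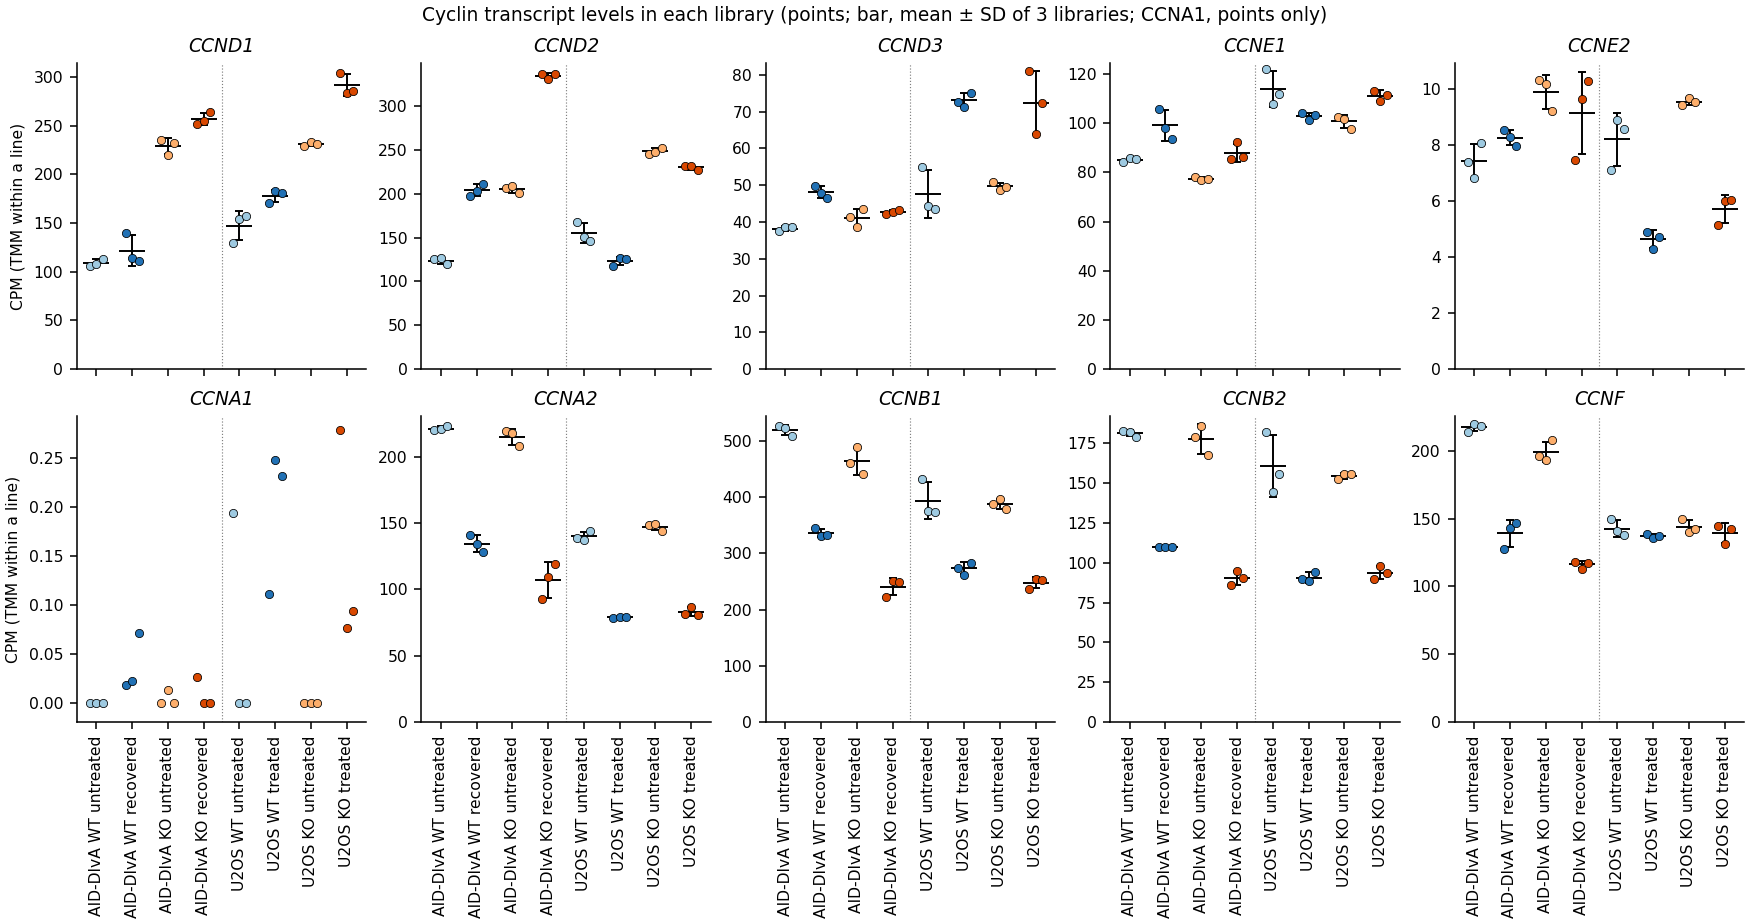
Transcript level of each cyclin in CPM (y axis, linear, starting at 0; scaled within a line) in each of the 3 libraries of the 8 groups (points; bars are the mean and SD of 3 libraries, and CCNA1 is drawn as points only). CCND1 and CCND2 sit higher in ID3-KO than in WT cells of the same treatment, CCNA2, CCNB1 and CCNB2 sit lower after mocetinostat in each of the 4 pairs of groups, and CCNF sits lower only in the 2 recovered groups.

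CCNA2, CCNB1 and CCNB2, the cyclins of S phase and mitosis, fell after mocetinostat in every pair of groups, while members of the D and E types were called in either direction. In WT AID-DIvA cells after recovery 3 of 9 members tested were higher and 4 lower at an adjusted p below 0.05, where 23.9% of all genes tested were higher and 23.0% lower. In ID3-KO AID-DIvA cells 3 were higher and 4 lower, against 20.2% and 19.9% of all genes. In WT U2OS cells before recovery 2 of 10 tested were higher and 5 lower, against 26.0% and 22.9%. Without replicate 1 of the untreated cells 3 were higher and 6 lower, against 33.9% and 32.5%. These 3 include CCNA1, which had no untreated count left and entered that fit through its treated libraries alone. In ID3-KO U2OS cells 3 of 9 were higher and 5 lower, against 35.8% and 34.0%. With a log2 difference below -1 required as well, only CCNA2 in ID3-KO AID-DIvA cells was called, where 2.56% of all genes were. The median log2 difference over the members tested was 0.16, -0.11, -0.23 and -0.11 in these 4 comparisons, and over all genes tested it ran from -0.02 to 0.01. In these bulk samples, fewer cells in the phase that makes a cyclin and less of its RNA per cell cannot be told apart.

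**Figure D2:**
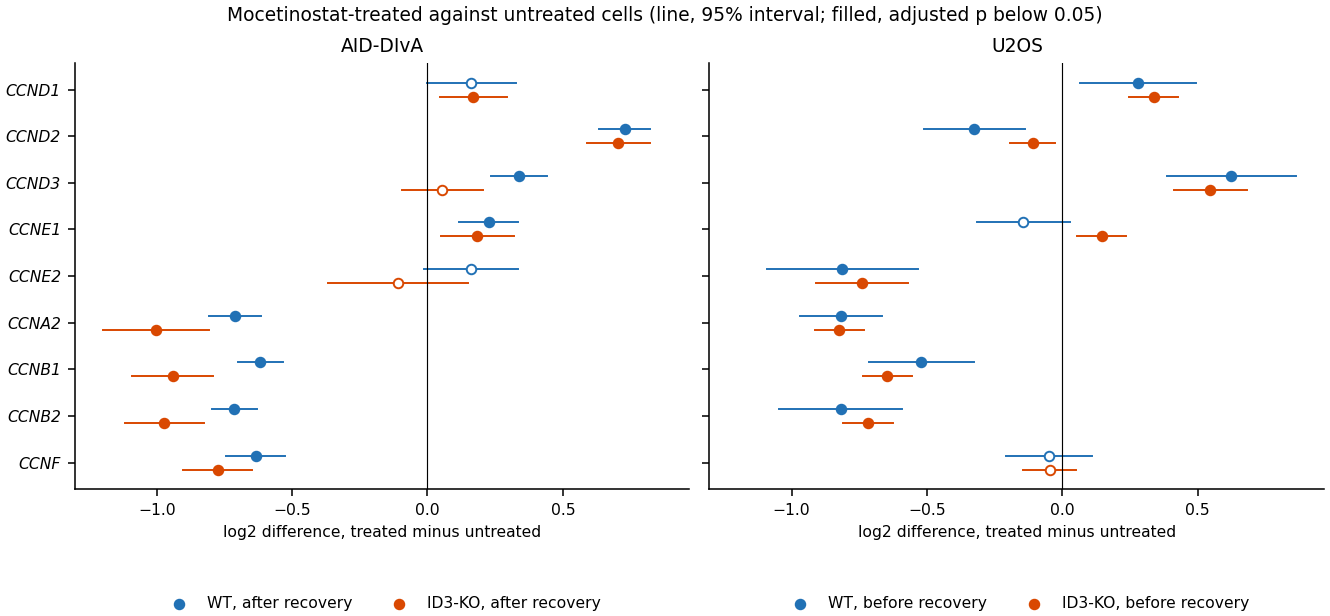
Log2 difference between mocetinostat-treated and untreated cells (x axis) for the 9 cyclins above 1 CPM (y axis), in AID-DIvA cells after recovery and U2OS cells before it; points are edgeR estimates, lines their 95% intervals, and filled points have an adjusted p below 0.05. CCNA2, CCNB1 and CCNB2 lie left of 0 in all 4 comparisons, CCND2 lies right of 0 after recovery and left before it, and CCNF and CCNE2 lie left of 0 with intervals clear of it in U2OS or AID-DIvA cells alone, CCNE2 before recovery and CCNF after it.

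CCND1 (chr11:69455855-69469242, plus strand, GRCh37), which encodes cyclin D1, the main partner of CDK4 in many solid tumours, differed between genotypes in all 4 comparisons and by a smaller fold between treatments. In AID-DIvA cells it stood at 106, 108 and 113 CPM in untreated WT, 139.6, 114 and 111 in recovered WT, 235, 219.7 and 232 in untreated ID3-KO and 252, 255 and 264 in recovered ID3-KO cells. Every ID3-KO library lay above every WT library of the line. In U2OS cells it stood at 129.96, 154 and 157 CPM in untreated WT, 171, 183 and 181 in treated WT, 229, 233 and 231 in untreated ID3-KO and 304, 284 and 286 in treated ID3-KO cells, again without overlap between genotypes or between treated and untreated cells. The genotype difference was 2.10-fold in untreated AID-DIvA cells (log2 difference 1.07, SE 0.05, adjusted p = 5.1e-11), 2.13-fold in recovered AID-DIvA cells (log2 difference 1.09, SE 0.08, adjusted p = 1.2e-05), 1.57-fold in untreated U2OS cells (log2 difference 0.65, SE 0.09, adjusted p = 0.0037) and 1.64-fold in treated U2OS cells (log2 difference 0.72, SE 0.04, adjusted p = 6.6e-14). Without replicate 1 of untreated WT U2OS cells the untreated U2OS value was 0.57 (adjusted p = 6.6e-17).

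With treatment the differences of CCND1 were smaller. Before recovery it rose 1.21-fold in WT U2OS cells (log2 difference 0.28, SE 0.09, adjusted p = 0.037) and 1.26-fold in ID3-KO U2OS cells (log2 difference 0.34, SE 0.04, adjusted p = 2.8e-07). The WT value was 0.19 when replicate 1 of the untreated cells was left out (adjusted p = 7.1e-06). The WT call was lost without replicate 2 of the untreated cells (adjusted p = 0.054) or without replicate 1, 2 or 3 of the treated cells (0.082, 0.13 and 0.12). After recovery the rise in ID3-KO cells was 1.12-fold (log2 difference 0.17, SE 0.06, adjusted p = 0.034), and that call was lost with no filter on low counts (0.069), in a fit of all 4 groups of the line (0.061) and without replicate 2 or 3 of the recovered or replicate 1 or 2 of the untreated ID3-KO cells (0.097, 0.081, 0.069 and 0.14). In recovered WT cells CCND1 was not called (log2 difference 0.16, SE 0.08, adjusted p = 0.099), with a 95% interval of the log2 difference from -0.0026 to 0.33, and it was called without replicate 3 of those cells (0.022) or with no filter (0.010). Counts from the reverse strand alone put CCND1 at 1.08 to 1.12 times the level given here. ORAOV1, at 31.6 CPM, overlaps its end on the opposite strand.

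CCND2 (chr12:4382938-4414516, plus strand) encodes cyclin D2 and was the only member whose treatment difference was called in opposite directions at the 2 stages in both genotypes. In AID-DIvA cells it stood at 125, 127 and 119.7 CPM in untreated WT, 198, 203 and 212 in recovered WT, 206, 209 and 201 in untreated ID3-KO and 337, 331 and 337 in recovered ID3-KO cells. All recovered libraries lay above the untreated libraries of their genotype, and untreated ID3-KO cells overlapped recovered WT cells. The rise was 1.66-fold in WT (log2 difference 0.73, SE 0.04, adjusted p = 2.3e-08) and 1.63-fold in ID3-KO cells (log2 difference 0.71, SE 0.05, adjusted p = 6.2e-06). In U2OS cells it stood at 168, 150.3 and 147 CPM in untreated WT, 118, 127 and 125 in treated WT, 246, 248 and 253 in untreated ID3-KO and 232, 232 and 228 in treated ID3-KO cells, where treated libraries lay below untreated ones. Before recovery it fell to 0.80 of the untreated level in WT (log2 difference -0.32, SE 0.08, adjusted p = 0.011) and to 0.93 in ID3-KO cells (log2 difference -0.11, SE 0.04, adjusted p = 0.02). The WT value was -0.27 without replicate 1 of the untreated cells, and the call was lost without replicate 1 of the treated cells (0.064). The ID3-KO call was lost with at least 10 counts required in every library (0.082), in the fit of all 4 groups (0.13), and without replicate 2 or 3 of the untreated or replicate 3 of the treated cells (0.056, 0.10 and 0.090). The difference between stages was 1.05 on the log2 scale in WT (SE 0.08, adjusted p = 3.5e-11; 1.005 without replicate 1 of untreated WT U2OS cells) and 0.82 in ID3-KO cells (SE 0.08, adjusted p = 2.7e-09).

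Between genotypes CCND2 was higher in ID3-KO cells in all 4 comparisons, as CCND1 was. ID3-KO cells held 1.67 times the WT level in untreated AID-DIvA cells (log2 difference 0.74, SE 0.04, adjusted p = 1.6e-09), 1.66 times in recovered AID-DIvA cells (log2 difference 0.73, SE 0.06, adjusted p = 1.2e-05), 1.61 times in untreated U2OS cells (log2 difference 0.69, SE 0.08, adjusted p = 0.0012) and 1.88 times in treated U2OS cells (log2 difference 0.91, SE 0.04, adjusted p = 2.5e-16). In untreated U2OS cells the log2 difference was 0.74 without replicate 1 of the WT cells. The comparisons of treatment and of genotype share libraries.

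CCND3 (chr6:41902671-42018095, minus strand), which encodes cyclin D3, rose with treatment in 3 of the 4 comparisons. In U2OS cells it stood at 55.0, 44.3 and 43.4 CPM in untreated WT, 72.7, 71.4 and 75.2 in treated WT, 50.8, 48.7 and 49.6 in untreated ID3-KO and 81.0, 63.9 and 72.4 in treated ID3-KO cells, with no overlap between treated and untreated cells. It rose 1.54-fold in WT (log2 difference 0.63, SE 0.10, adjusted p = 0.0017) and 1.46-fold in ID3-KO cells (log2 difference 0.55, SE 0.06, adjusted p = 2.1e-07). Without replicate 1 of untreated WT U2OS cells, its highest untreated library, the WT difference was 0.74 (adjusted p = 3.4e-21) and ID3-KO cells were higher than WT among untreated cells (log2 difference 0.18, adjusted p = 9.3e-04), a difference not called with that library in (log2 difference 0.06, SE 0.10, adjusted p = 0.71). After recovery the values were 37.5, 38.6 and 38.5 CPM in untreated WT, 49.8, 47.8 and 46.7 in recovered WT, 41.3, 38.7 and 43.5 in untreated ID3-KO and 42.2, 42.7 and 43.3 in recovered ID3-KO cells. WT cells rose 1.27-fold (log2 difference 0.34, SE 0.05, adjusted p = 6.6e-05), and in ID3-KO cells the groups overlapped and no difference was called (log2 difference 0.06, SE 0.07, adjusted p = 0.54), with an interval from -0.10 to 0.21. The difference between these responses was -0.28 and was not called (adjusted p = 0.13). No genotype difference of CCND3 was called in any of the 4 comparisons, although it was in the fit of all 4 groups for recovered AID-DIvA cells (-0.17, adjusted p = 0.032) and without replicate 2 of the untreated ID3-KO AID-DIvA cells (0.16, 0.031).

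Summed per length, D-type transcripts were higher in ID3-KO than in WT cells and higher in treated than in untreated cells. The sum was 47.2 ± 0.860 FPKM (SD, n = 3) in untreated WT, 62.6 ± 2.17 in recovered WT, 84.5 ± 2.36 in untreated ID3-KO and 107 ± 1.69 in recovered ID3-KO AID-DIvA cells. In U2OS cells it was 59.4 ± 2.20 in untreated WT, 70.5 ± 2.37 in treated WT, 89.0 ± 0.0922 in untreated ID3-KO and 109 ± 3.72 in treated ID3-KO cells, and the library that stood apart had the lowest sum of untreated WT U2OS cells, 56.9 against 60.9 and 60.4 FPKM. The composition moved in opposite ways at the 2 stages. CCND2 made up 36.7% ± 1.28 of the sum in untreated and 45.5% ± 3.24 in recovered WT AID-DIvA cells, but 35.5% ± 2.82 in untreated and 25.4% ± 0.269 in treated WT U2OS cells. In ID3-KO cells its share went from 34.3% ± 1.22 to 43.3% ± 0.581 in AID-DIvA and from 37.8% ± 0.320 to 30.4% ± 1.07 in U2OS cells. CCND3 never exceeded 20.9% of the sum in any library. These sums and shares are descriptions and were not tested. The sums rest on library totals without the scaling of CPM, which changes the size of a rise. CCND2 in ID3-KO U2OS cells averaged 249 CPM untreated and 231 treated, but 33.7 and 33.0 FPKM.

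**Figure D3:**
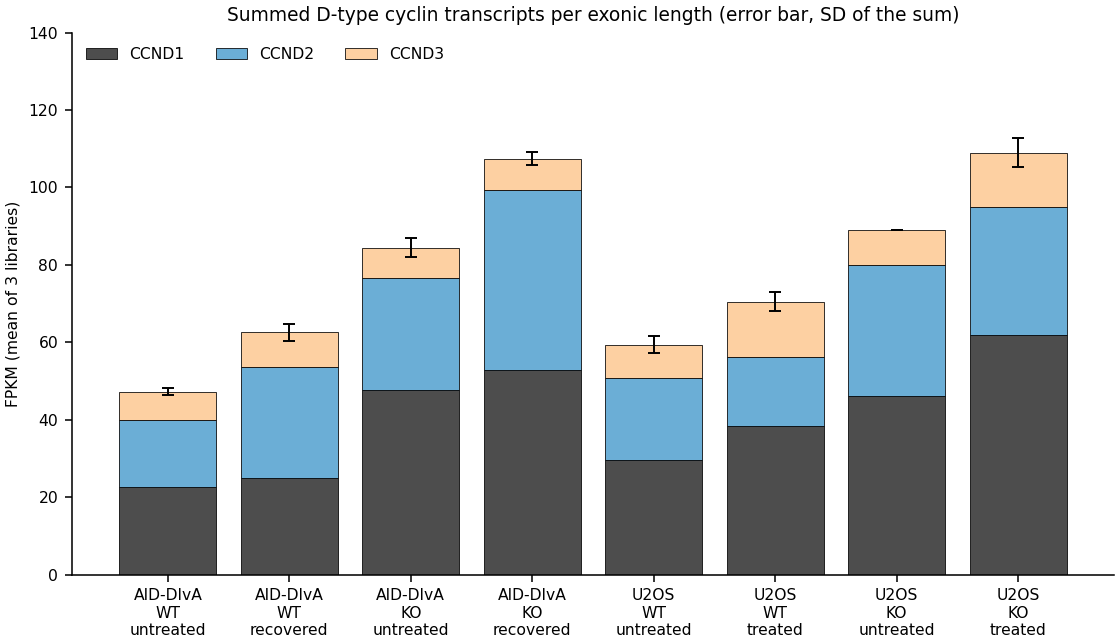
Summed level of the 3 D-type cyclin transcripts in FPKM (y axis, counts over the library total per kilobase of exon, without TMM scaling), stacked by gene as the mean of 3 libraries in each of the 8 groups. Error bars are the SD of the sum. The bars of recovered or treated ID3-KO cells are the tallest, at 107 and 109 FPKM, and that of untreated WT AID-DIvA cells is the shortest, at 47.2 FPKM.

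CCNE1 (chr19:30302805-30315215, plus strand) encodes cyclin E1 and stayed within the narrowest range of the members above 1 CPM. In AID-DIvA cells it stood at 84.3, 85.8 and 85.5 CPM in untreated WT, 106, 98.1 and 93.5 in recovered WT, 78.2, 76.7 and 77.5 in untreated ID3-KO and 85.6, 92.2 and 86.1 in recovered ID3-KO cells. Recovered libraries lay above untreated ones in each genotype. The rise was 1.17-fold in WT (log2 difference 0.23, SE 0.05, adjusted p = 0.0021) and 1.14-fold in ID3-KO cells (log2 difference 0.18, SE 0.06, adjusted p = 0.033). The ID3-KO call was lost with no filter (0.067) and without replicate 2 of the recovered or replicate 1, 2 or 3 of the untreated cells (0.16, 0.089, 0.11 and 0.057). In U2OS cells it stood at 122, 108 and 112 CPM in untreated WT, 104, 101 and 103 in treated WT, 103, 102 and 97.8 in untreated ID3-KO and 113, 109 and 111 in treated ID3-KO cells. Before recovery ID3-KO cells rose 1.11-fold (log2 difference 0.15, SE 0.04, adjusted p = 0.0048), a call lost without replicate 3 of the untreated cells (0.051). WT cells were not called (log2 difference -0.14, SE 0.07, adjusted p = 0.15), but were lower in the fit of all 4 groups (0.041) and without replicate 1 of the untreated cells (log2 difference -0.10, adjusted p = 0.018). Between genotypes CCNE1 was lower in untreated ID3-KO AID-DIvA cells (log2 difference -0.13, SE 0.04, adjusted p = 0.021) and higher in treated ID3-KO U2OS cells (log2 difference 0.12, SE 0.04, adjusted p = 0.03). The first of these calls was lost with no filter (0.063), in the fit of all 4 groups (0.072) and without any 1 of replicates 1, 2 and 3 of WT or 1 and 2 of ID3-KO cells (0.055 to 0.095). The second was lost with no filter (0.066), in the fit of all 4 groups (0.21) and without any 1 of the WT replicates or replicate 3 of ID3-KO cells (0.070 to 0.12).

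CCNE2 (chr8:95891998-95908906, minus strand), which encodes cyclin E2, fell before recovery and not after it. The U2OS libraries held 7.12, 8.91 and 8.58 CPM in untreated WT, 4.91, 4.30 and 4.73 in treated WT, 9.43, 9.68 and 9.56 in untreated ID3-KO and 5.13, 5.99 and 6.03 in treated ID3-KO cells. Treated and untreated libraries did not overlap in either genotype. It fell to 0.57 of the untreated level in WT (log2 difference -0.81, SE 0.12, adjusted p = 9.8e-04; -0.91 without replicate 1 of the untreated cells) and to 0.60 in ID3-KO cells (log2 difference -0.74, SE 0.08, adjusted p = 3.5e-08). In AID-DIvA cells the values were 7.40, 6.81 and 8.06 CPM in untreated WT, 8.53, 8.29 and 7.98 in recovered WT, 10.3, 10.2 and 9.21 in untreated ID3-KO and 7.48, 9.66 and 10.3 in recovered ID3-KO cells, and treated and untreated groups overlapped in each genotype. No difference was called after recovery in WT (log2 difference 0.16, SE 0.08, adjusted p = 0.12, interval from -0.01 to 0.34) or ID3-KO cells (log2 difference -0.11, SE 0.12, adjusted p = 0.48, interval from -0.37 to 0.15). The stages differed by 0.97 on the log2 scale in WT (SE 0.15, adjusted p = 5.7e-06; 1.08 without that library) and by 0.63 in ID3-KO cells (SE 0.15, adjusted p = 8.2e-04). ID3-KO cells held more CCNE2 than WT in untreated AID-DIvA cells (log2 difference 0.42, SE 0.08, adjusted p = 4.7e-04) and in treated U2OS cells (log2 difference 0.30, SE 0.10, adjusted p = 0.015). The second of these calls was lost in the fit of all 4 groups (0.065) and without replicate 2 of WT or replicate 3 of ID3-KO cells (0.072 and 0.089). In recovered AID-DIvA cells no genotype difference was called (log2 difference 0.16, SE 0.12, adjusted p = 0.36), and it was without replicate 1 of the ID3-KO cells (0.27, adjusted p = 0.035). Genes on the opposite strand overlap CCNE2, INTS8 and NDUFAF6 among them, and reverse-strand counts put it at 1.39 to 1.58 times the level given here. By counts of either strand, CCNE2 made up between 2.42% and 7.18% of the E-type sum per length, and CCNE1 the rest. Reverse-strand counts put CCNE1 at 0.968 to 0.984 times its level, so the share of CCNE2 would be larger by them.

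CCNA2 (chr4:122737599-122745087, minus strand), the cyclin of S phase and G2, fell in all 4 treatment comparisons. In AID-DIvA cells it stood at 219.7, 220.4 and 223 CPM in untreated WT, 141, 134 and 128 in recovered WT, 219, 218 and 208 in untreated ID3-KO and 92.5, 109 and 119 in recovered ID3-KO cells. The recovered ID3-KO libraries were the lowest of the line and did not overlap recovered WT cells. After recovery it fell to 0.61 of the untreated level in WT (log2 difference -0.71, SE 0.04, adjusted p = 3.2e-08) and to 0.50 in ID3-KO cells (log2 difference -1.004, SE 0.09, adjusted p = 2.0e-05). The U2OS libraries held 139, 137 and 144 CPM in untreated WT, 78.6, 79.2 and 79.3 in treated WT, 149, 149 and 144 in untreated ID3-KO and 81.5, 86.9 and 80.8 in treated ID3-KO cells. Before recovery it fell to 0.57 of the untreated level in both genotypes (log2 difference -0.82, SE 0.07, adjusted p = 4.3e-05 in WT, log2 difference -0.82, SE 0.04, adjusted p = 1.2e-13 in ID3-KO), and the WT value was -0.83 without replicate 1 of the untreated cells. Recovered ID3-KO cells held 0.80 of the recovered WT level (log2 difference -0.31, SE 0.09, adjusted p = 0.024), a call lost without replicate 1 or 2 of the WT or replicate 2 of the ID3-KO cells (0.081, 0.066 and 0.060). EXOSC9 overlaps its end on the opposite strand, and reverse-strand counts put CCNA2 at 0.978 to 0.994 times the level given here.

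CCNA1 (chr13:37005967-37017019, plus strand) was at the edge of detection. Its counts were 7, 12 and 17 in treated WT U2OS cells, 16, 4 and 6 in treated ID3-KO U2OS cells and 1, 1 and 4 in recovered WT AID-DIvA cells, with 1 count in each of the untreated and recovered ID3-KO AID-DIvA groups. In untreated WT U2OS cells all 12 counts came from replicate 1, the library that stood apart, and replicates 2 and 3 had none. Untreated WT AID-DIvA cells and untreated ID3-KO U2OS cells had none in any library, which allows up to 3 counts or 0.0171 and 0.0180 CPM for the group. Pooled over the group, the 26 counts of treated ID3-KO U2OS cells stood at 8.54 times that limit for their untreated cells. Of these counts 16 came from replicate 1, and the fit did not test CCNA1 in ID3-KO U2OS cells. The fit tested CCNA1 in WT U2OS cells and called no difference (adjusted p = 0.26). Without replicate 1 of the untreated cells no untreated count was left, and CCNA1 entered the fit through the treated libraries alone. Its call as higher in that fit is therefore no test of a difference.

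CCNB1 (chr5:68462837-68474072, plus strand), the cyclin that takes CDK1 into mitosis, fell in all 4 treatment comparisons as well. The AID-DIvA libraries held 526, 523 and 508 CPM in untreated WT, 345, 331 and 333 in recovered WT, 461, 488 and 441 in untreated ID3-KO and 223, 251 and 249.7 in recovered ID3-KO cells. These 4 groups did not overlap, and every ID3-KO library lay below the WT libraries of the same treatment. It fell to 0.65 of the untreated level in WT (log2 difference -0.62, SE 0.04, adjusted p = 3.2e-08) and to 0.52 in ID3-KO cells (log2 difference -0.94, SE 0.07, adjusted p = 5.5e-06). The U2OS libraries held 432, 375 and 374 CPM in untreated WT, 275, 262 and 283 in treated WT, 387, 397 and 379 in untreated ID3-KO and 237, 254 and 252 in treated ID3-KO cells, and it fell to 0.70 of the untreated level in WT (log2 difference -0.52, SE 0.08, adjusted p = 0.0015; -0.46 without replicate 1 of the untreated cells) and to 0.64 in ID3-KO cells (log2 difference -0.65, SE 0.04, adjusted p = 5.9e-12). ID3-KO cells held 0.90 of the WT level in untreated AID-DIvA cells (log2 difference -0.16, SE 0.04, adjusted p = 0.0097), 0.72 in recovered AID-DIvA cells (log2 difference -0.47, SE 0.06, adjusted p = 3.4e-04) and 0.91 in treated U2OS cells (log2 difference -0.14, SE 0.04, adjusted p = 0.013). The untreated call was lost without replicate 1 or 2 of WT cells (0.054 and 0.051), and the treated U2OS call in the fit of all 4 groups (0.16) and without replicate 1 or 3 of WT cells (0.055 and 0.097).

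CCNB2 (chr15:59397277-59417244, plus strand), the other B-type cyclin among the members, fell in all 4 treatment comparisons too. The AID-DIvA libraries held 183, 182 and 179 CPM in untreated WT, 109.9, 109.7 and 110.0 in recovered WT, 179, 186 and 168 in untreated ID3-KO and 86.3, 94.5 and 90.4 in recovered ID3-KO cells. Untreated WT and ID3-KO cells overlapped while the recovered groups did not. It fell to 0.61 of the untreated level in WT (log2 difference -0.71, SE 0.04, adjusted p = 1.0e-08) and to 0.51 in ID3-KO cells (log2 difference -0.97, SE 0.07, adjusted p = 3.6e-06) after recovery, and to 0.57 in WT (log2 difference -0.82, SE 0.10, adjusted p = 3.2e-04) and 0.61 in ID3-KO cells (log2 difference -0.72, SE 0.04, adjusted p = 1.5e-12) before it. In U2OS cells the values were 182, 144 and 156 CPM in untreated WT, 89.5, 88.3 and 94.4 in treated WT, 152, 156 and 155 in untreated ID3-KO and 89.8, 98.2 and 93.4 in treated ID3-KO cells. Replicate 1 of untreated WT U2OS cells was the highest of them, and without it the WT difference was -0.73 (adjusted p = 1.2e-22). Recovered ID3-KO cells held 0.83 of the recovered WT level (log2 difference -0.27, SE 0.06, adjusted p = 0.0083), a call lost without replicate 2 of the WT cells (0.055). Per length, CCNB1 made up between 62.9% and 69.1% of the sum of CCNB1 and CCNB2 in every library.

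CCNF (chr16:2479395-2508855, plus strand), which encodes cyclin F, a substrate receptor of a ubiquitin ligase, fell after recovery and not before it. The AID-DIvA libraries held 214, 219.5 and 218 CPM in untreated WT, 128, 143 and 147 in recovered WT, 196, 193 and 208 in untreated ID3-KO and 118, 113 and 117 in recovered ID3-KO cells. No recovered library overlapped an untreated one. It fell to 0.64 of the untreated level in WT (log2 difference -0.63, SE 0.05, adjusted p = 3.6e-07) and to 0.58 in ID3-KO cells (log2 difference -0.77, SE 0.06, adjusted p = 6.5e-06). The U2OS libraries held 149.8, 141 and 138 CPM in untreated WT, 139, 136 and 137 in treated WT, 149.8, 140.4 and 142 in untreated ID3-KO and 144, 131 and 143 in treated ID3-KO cells. Before recovery no difference was called in WT (log2 difference -0.05, SE 0.07, adjusted p = 0.58, interval from -0.21 to 0.11; -0.02 and adjusted p = 0.62 without replicate 1 of the untreated cells) or ID3-KO cells (log2 difference -0.05, SE 0.05, adjusted p = 0.38, interval from -0.14 to 0.05). The stages differed by -0.58 in WT (SE 0.08, adjusted p = 2.1e-06; -0.61 without that library) and by -0.72 in ID3-KO cells (SE 0.08, adjusted p = 7.5e-08). Between genotypes it was lower in ID3-KO cells among untreated (log2 difference -0.12, SE 0.04, adjusted p = 0.034) and recovered AID-DIvA cells (log2 difference -0.25, SE 0.07, adjusted p = 0.025). The untreated call was lost with no filter (0.076), in the fit of all 4 groups (0.099) and without any 1 of replicates 1, 2 and 3 of WT or 1 and 2 of ID3-KO cells (0.074 to 0.15), and the recovered call without replicate 2 or 3 of WT or of ID3-KO cells (0.072 to 0.14).

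Counted over the members, CCND1 and CCND2 were higher in ID3-KO cells in each comparison of genotypes, and CCNA2, CCNB1, CCNB2 and CCNF were lower after recovery. In untreated AID-DIvA cells 3 of 9 members were higher in ID3-KO cells (CCND1, CCND2, CCNE2) and 3 lower (CCNB1, CCNE1, CCNF), where 18.6% of all genes were higher and 18.1% lower. CCND1 was above a log2 difference of 1 there, as 2.27% of all genes were. In recovered AID-DIvA cells CCND1 and CCND2 were higher and CCNA2, CCNB1, CCNB2 and CCNF lower, against 12.6% and 11.1% of all genes, and CCND1 was again above 1, as 2.50% were. In untreated U2OS cells CCND1 and CCND2 were higher and none was lower by edgeR, against 6.56% and 8.63%. There 1 member, CCNE1, was lower at an unadjusted p below 0.05, DESeq2 called none lower, and edgeR without replicate 1 of WT cells called 3 higher and CCNE1 lower (-0.13, adjusted p = 0.0052), against 20.5% and 20.6% of all genes. In treated U2OS cells 4 of 10 were higher (CCND1, CCND2, CCNE1, CCNE2) and CCNB1 lower, against 19.0% and 19.0%.

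**Figure D4:**
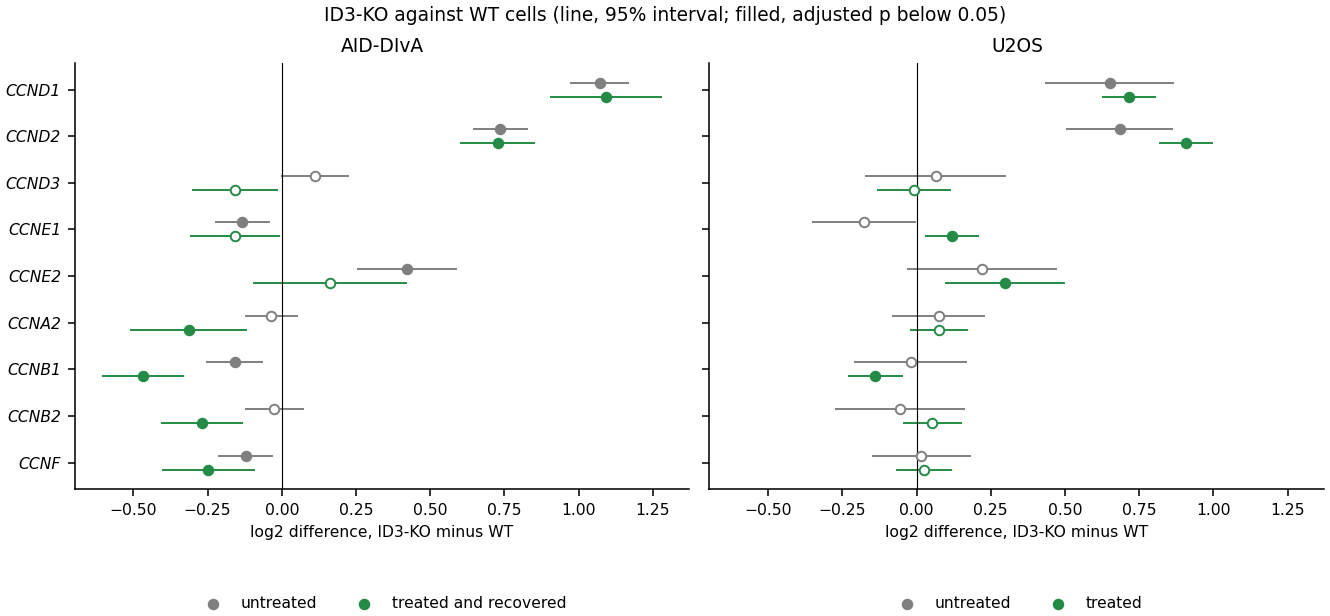
Log2 difference between ID3-KO and WT cells (x axis) for the 9 cyclins above 1 CPM (y axis), in untreated and in recovered or treated cells of each line; points are edgeR estimates, lines their 95% intervals, and filled points have an adjusted p below 0.05. CCND1 and CCND2 lie right of 0 in all 4 comparisons, and CCNA2, CCNB1, CCNB2 and CCNF lie left of 0 in recovered AID-DIvA cells.

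The question of the study, whether cells without ID3 respond differently to the inhibitor, was asked of each member by the genotype by treatment interaction. No member was called in either line by edgeR. On simulated counts the AID-DIvA interaction recovered 44% of log2 changes of 0.5, so a smaller difference that was not called may still be present. In AID-DIvA cells 0.762% of all genes had a higher and 0.451% a lower response in ID3-KO cells. CCNA2, CCNB1, CCNB2 and CCND3 had a lower response in ID3-KO cells at an unadjusted p below 0.05, with differences of responses of -0.29, -0.32, -0.25 and -0.28 on the log2 scale and adjusted p of 0.24, 0.055, 0.13 and 0.13. DESeq2 called CCNB1 (adjusted p = 0.0081) and CCNB2 (0.044). CCNB1 was also called with no filter on low counts (0.030) and without replicate 1 of recovered or replicate 3 of untreated ID3-KO cells (0.048 and 0.035), and over all 18 alternatives its adjusted p ran from 0.0081 to 0.16. In U2OS cells 1.10% of all genes had a higher and 1.06% a lower response in ID3-KO cells. CCND2 and CCNE1 had a higher response at an unadjusted p below 0.05 (0.22 and 0.29, adjusted p 0.28 and 0.096), and DESeq2 called CCNE1 (0.024). Without replicate 1 of untreated WT U2OS cells edgeR called CCNE1 higher (0.24, adjusted p = 0.0045) and CCNB1 lower (-0.19, adjusted p = 0.027), against 4.46% and 4.56% of all genes.

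Responses after recovery were then compared with responses before it, a comparison in which the AID-DIvA vector and recovery change together. In WT cells 3 of 10 members responded more positively after recovery (CCND2, CCNE2, CCNE1) and 2 more negatively (CCND3, CCNF), where 22.6% and 22.8% of all genes did, and the counts were again 3 and 2 without replicate 1 of untreated WT U2OS cells, against 24.1% and 23.0%. The WT call of CCND3 was lost when any of 11 single libraries was left out (adjusted p 0.053 to 0.11). In ID3-KO cells 2 responded more positively (CCND2, CCNE2) and 4 more negatively (CCNB1, CCNB2, CCND3, CCNF), against 21.7% and 24.3%. The ID3-KO call of CCNB2 was lost with no filter on low counts (0.082) and when any of 9 single libraries was left out (0.053 to 0.087), and CCNA2 was called lower without replicate 3 of recovered ID3-KO cells (-0.23, adjusted p = 0.033). For CCNA2 in WT cells no difference between stages was called (0.11, adjusted p = 0.34), with an interval from -0.07 to 0.29, and the value was 0.13 (adjusted p = 0.23) without replicate 1 of untreated WT U2OS cells.

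Ordered by level over all 24 libraries on a common scale, the groups fell in a different order for each subfamily. CCNA2, CCNB1 and CCNB2 were highest in untreated AID-DIvA cells of both genotypes, where neighbouring groups overlapped for CCNA2 and CCNB2 and not for CCNB1, and CCNF followed the same top order without overlap. Their lowest groups were treated U2OS cells or recovered ID3-KO AID-DIvA cells, which overlapped each other for CCNB1 and CCNB2. CCND1 was lowest in the 4 WT groups, of which the first 3 overlapped in succession, and highest in treated ID3-KO U2OS and recovered ID3-KO AID-DIvA cells, which overlapped. CCND2 was highest in recovered ID3-KO AID-DIvA cells, apart from all other groups, and lowest in treated WT U2OS cells. CCND3 was highest in the 2 treated U2OS groups, which overlapped each other and no other group. CCNE1 was lowest in the 2 untreated AID-DIvA groups, which overlapped no neighbour, and each group above them overlapped the next. CCNE2 was lowest in the 2 treated U2OS groups, which overlapped no neighbour.

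Across the 24 libraries, each line centred on its own mean, CCNA2 and CCNB2 had a Pearson r of 0.98, CCNB1 and CCNB2 of 0.97 and CCNA2 and CCNB1 of 0.96, and CCND1 and CCND2 of 0.77. CCND3 ran against CCNA2 at -0.75. The libraries share their treatment groups, so these values describe the design as much as the genes. Of 10285 genes of at least 10 CPM, the nearest to CCNA2 were SHCBP1 (0.99) and NDC80 (0.98), to CCNB1 the mitotic kinase AURKA (0.995) and KNSTRN (0.98), to CCNB2 HYLS1 (0.98) and ARHGEF39 (0.98) and to CCNF FAM64A (0.98) and TNFAIP8L1 (0.97). Nearest to CCND1 were SLC35F2 (0.97) and BIRC2 (0.96), to CCND2 KRT75 (0.97) and CTTN (0.97) and to CCND3 TBC1D24 (0.97) and CSRP1 (0.95). CCNE2 was nearest to S100PBP (0.97) and WDR76 (0.95). CCNE1 had the lowest maximum, with PPIF (0.90) and GNPDA1 (0.89).

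Other genes of the cyclin pathway were counted by list, and each list is read beside the whole transcriptome. There, 23.9% of the genes passed the test as higher and 23.0% as lower in recovered WT, 20.2% and 19.9% in recovered ID3-KO, 26.0% and 22.9% in treated WT U2OS and 35.8% and 34.0% in treated ID3-KO U2OS cells. Without replicate 1 of untreated WT U2OS cells the shares in WT U2OS cells were 33.9% and 32.5%. Values of single genes below are log2 differences in that order of comparisons, followed by the WT U2OS value without replicate 1 of the untreated cells.

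Of the kinases and binding subunits that the cyclins act with (CDK1, CDK2, CDK4, CDK6, CKS1B and CKS2), 4 of 6 were lower and 2 not called in WT AID-DIvA cells, 3 lower and 3 not called in ID3-KO AID-DIvA cells, 2 lower and 4 not called in WT U2OS cells, and 2 higher and 4 lower in ID3-KO U2OS cells. The list medians were -0.22, -0.22, -0.19 and -0.23, and without the library that stood apart 1 was higher and 4 lower in WT U2OS cells. CDK4, the partner of D-type cyclins, had -0.37, -0.05, -0.81 and -0.73 (adjusted p = 5.7e-06, 0.49, 3.7e-04 and 8.2e-13) and -0.71 without that replicate (adjusted p = 3.8e-24). CDK4 was also called in the AID-DIvA interaction, with a response higher by 0.32 in ID3-KO cells (adjusted p = 0.021), where it stood at 192 ± 7.97 CPM untreated and 185 ± 2.001 recovered (mean ± SD, n = 3). CDK1, the partner of the B-type cyclins, had -0.23, -0.57, -0.04 and 0.11 (adjusted p = 0.0011, 0.0015, 0.66 and 0.041) and -0.00095 without that replicate (adjusted p = 0.98). It was lower after recovery in both genotypes. CKS2, a small CDK-binding subunit, had -0.43, -0.49, 0.07 and 0.31 (adjusted p = 2.2e-06, 3.6e-04, 0.64 and 7.3e-06) and 0.20 without that replicate (adjusted p = 1.1e-05). CDK2, the partner of cyclins E and A, had -0.11, -0.16, -0.52 and -0.45 (adjusted p = 0.055, 0.06, 5.3e-04 and 8.2e-09) and -0.51 without that replicate (adjusted p = 1.5e-16), and was called in U2OS cells of both genotypes.

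Of the CDK inhibitors tested, 1 of 5 was higher and 4 lower in recovered cells of each genotype, 3 of 6 were higher and 2 lower in WT U2OS cells, and 3 were higher and 3 lower in ID3-KO U2OS cells, with list medians of -0.85, -1.05, 0.11 and 0.25. Without the library that stood apart 4 of 7 were higher and 2 lower in WT U2OS cells, with a median of 0.72. CDKN1A, which encodes p21, rose in every comparison, with 1.21, 0.94, 0.92 and 0.95 (adjusted p = 4.0e-09, 7.3e-06, 1.9e-04 and 5.4e-14) and 1.03 without that replicate (adjusted p = 5.8e-31). It went from 153 ± 2.86 to 352 ± 33.5 CPM in WT AID-DIvA cells. CDKN2C, which encodes the CDK4 and CDK6 inhibitor p18, fell in every comparison, with -1.56, -1.58, -1.64 and -1.55 (adjusted p = 6.7e-09, 7.2e-07, 3.3e-05 and 2.1e-17) and -1.52 without that replicate (adjusted p = 7.7e-26). CDKN1B, which encodes p27, fell in every comparison as well, with -0.85, -1.10, -0.76 and -1.01 (adjusted p = 1.8e-06, 6.7e-06, 1.3e-04 and 1.8e-14) and -0.71 without that replicate (adjusted p = 1.4e-17). CDKN2D, which encodes p19, was lower in recovered AID-DIvA and higher in treated U2OS cells of both genotypes, with -0.90, -1.05, 0.56 and 0.79 (adjusted p = 5.3e-07, 1.9e-05, 0.0072 and 2.8e-11) and 0.72 without that replicate (adjusted p = 1.6e-14). CDKN2A was tested in U2OS cells alone and lay near the floor. It went from 0.00950 ± 0.0165 to 0.366 ± 0.0616 CPM in WT and from 0.0414 ± 0.0438 to 0.411 ± 0.0664 CPM in ID3-KO cells. It passed the filter on low counts through the treated libraries alone. Its calls as higher, which the counts above include, are therefore no test of a difference.

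Among 8 phosphatases and kinases that gate the CDKs, 3 were higher and 3 lower in WT AID-DIvA cells, 1 and 3 in ID3-KO AID-DIvA cells, 2 and 4 in WT U2OS cells (3 and 4 without the library that stood apart) and 3 and 4 in ID3-KO U2OS cells, with list medians of -0.01, -0.16, -0.24 and -0.08. CDC25C, a phosphatase that switches on CDK1 complexes, had -0.94, -1.20, -0.0049 and 0.11 (adjusted p = 6.2e-08, 3.1e-06, 0.96 and 0.097) and -0.02 without that replicate (adjusted p = 0.75), and its calls were in recovered cells. CDC25B, another such phosphatase, fell in every comparison, with -0.83, -0.98, -0.47 and -0.45 (adjusted p = 4.4e-08, 2.6e-06, 9.8e-04 and 2.6e-09) and -0.44 without that replicate (adjusted p = 2.8e-16). CDC25A, which acts on CDK2 at the G1/S boundary, was higher in recovered AID-DIvA and lower in treated U2OS cells of both genotypes, with 0.30, 0.17, -0.48 and -0.26 (adjusted p = 0.0024, 0.043, 7.4e-04 and 2.8e-05) and -0.49 without that replicate (adjusted p = 3.2e-14). WEE1, which inhibits CDK1, fell in every comparison, with -0.22, -0.51, -0.61 and -0.56 (adjusted p = 0.0014, 0.0031, 1.7e-04 and 3.2e-10) and -0.63 without that replicate (adjusted p = 4.2e-18). MNAT1, a subunit of the CDK-activating kinase, had -0.05, -0.18, 0.66 and 0.66 (adjusted p = 0.47, 0.18, 3.2e-04 and 1.3e-10) and 0.72 without that replicate (adjusted p = 3.5e-19). CCNH, the cyclin of that kinase, had 0.04, -0.15, 0.34 and 0.55 (adjusted p = 0.67, 0.31, 0.0079 and 5.0e-09) and 0.37 without that replicate (adjusted p = 1.7e-07), so both were higher in treated U2OS cells.

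Of 14 genes of cyclin degradation, 1 was higher and 6 lower in WT AID-DIvA cells, 1 and 7 in ID3-KO AID-DIvA cells, 1 and 5 in WT U2OS cells (3 and 8 without the library that stood apart) and 2 and 9 in ID3-KO U2OS cells, with list medians of -0.12, -0.25, -0.11 and -0.20. CDC20, the activator of the anaphase-promoting complex in mitosis, had -0.69, -0.80, 0.06 and 0.01 (adjusted p = 2.1e-08, 7.1e-06, 0.67 and 0.88) and 0.17 without that replicate (adjusted p = 9.8e-06). It was lower after recovery, and in WT U2OS cells it was called higher only without that library. UBE2C, the ubiquitin-conjugating enzyme of that complex, fell in every comparison, with -0.45, -0.59, -0.82 and -0.54 (adjusted p = 1.0e-06, 2.5e-04, 0.0014 and 3.7e-10) and -0.66 without that replicate (adjusted p = 4.2e-20). FBXO31, an F-box protein that targets cyclin D1, rose in every comparison, with 0.44, 0.61, 0.56 and 0.54 (adjusted p = 7.5e-06, 2.1e-04, 3.5e-04 and 1.5e-08) and 0.53 without that replicate (adjusted p = 1.6e-14).

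Of 23 transcriptional regulators of cyclin genes, 2 were higher and 11 lower in WT AID-DIvA cells, 1 higher and 11 lower in ID3-KO AID-DIvA cells, 13 lower and 10 not called in WT U2OS cells, and 1 higher and 17 lower in ID3-KO U2OS cells, with list medians of -0.08, -0.25, -0.44 and -0.40. Without the library that stood apart 16 were lower in WT U2OS cells. FOXM1, an activator of mitotic genes, fell in every comparison, with -0.53, -0.54, -0.89 and -1.03 (adjusted p = 1.3e-06, 1.3e-04, 8.6e-05 and 8.5e-16) and -0.97 without that replicate (adjusted p = 8.4e-31). E2F8, a repressing E2F, fell in every comparison too, with -0.36, -0.44, -1.22 and -1.44 (adjusted p = 9.2e-05, 1.0e-03, 7.3e-05 and 3.6e-15) and -1.31 without that replicate (adjusted p = 4.5e-23). E2F1, an activating E2F, was higher in recovered AID-DIvA and lower in treated U2OS cells of both genotypes, with 0.30, 0.22, -0.60 and -0.31 (adjusted p = 4.0e-04, 0.038, 0.0048 and 1.9e-06) and -0.45 without that replicate (adjusted p = 1.3e-14). RB1, the pocket protein that restrains E2F, was lower after recovery in both genotypes, with -0.60, -0.72, -0.06 and -0.0044 (adjusted p = 1.5e-06, 0.0042, 0.7 and 0.95) and -0.19 without that replicate (adjusted p = 3.7e-04).

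A list of 17 other cyclins held those that act in transcription or outside the cycle and the B-type cyclin CCNB3. In WT AID-DIvA cells 2 were higher and 8 lower, and in ID3-KO AID-DIvA cells 4 of 16 tested were lower and 12 not called. In WT U2OS cells 3 were higher and 7 lower (4 and 8 without the library that stood apart). In ID3-KO U2OS cells 4 were higher and 8 lower of 16 tested. The list medians were -0.10, -0.12, -0.15 and -0.12. CCNB3, unlike CCNB1 and CCNB2, was higher in WT AID-DIvA (0.26, adjusted p = 0.016), WT U2OS (0.96, 8.4e-04) and ID3-KO U2OS cells (1.11, 4.0e-12). Its WT U2OS value was 0.83 without that replicate (adjusted p = 1.6e-13). No cyclin of the list was called higher in ID3-KO AID-DIvA cells. CCNG2, an atypical cyclin linked to arrest, fell in every comparison, with -0.996, -1.19, -0.40 and -0.31 (adjusted p = 7.1e-08, 1.7e-04, 0.0022 and 2.2e-05) and -0.42 without that replicate (adjusted p = 3.7e-11). CCNYL1, a cyclin Y relative, had -0.21, -0.19, 2.06 and 1.78 (adjusted p = 0.0059, 0.25, 2.9e-06 and 1.4e-18) and 2.05 without that replicate (adjusted p = 7.7e-25), and reached 100.2 ± 3.54 and 95.5 ± 4.72 CPM in treated WT and ID3-KO U2OS cells. CCNL2, a cyclin of RNA splicing, had 0.03, 0.05, -0.73 and -0.89 (adjusted p = 0.63, 0.49, 1.5e-04 and 1.9e-14) and -0.68 without that replicate (adjusted p = 2.4e-22), and was lower in treated U2OS cells. CCNJL was called in the AID-DIvA interaction, higher by 0.44 in ID3-KO cells (adjusted p = 0.025).

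**Figure D5:**
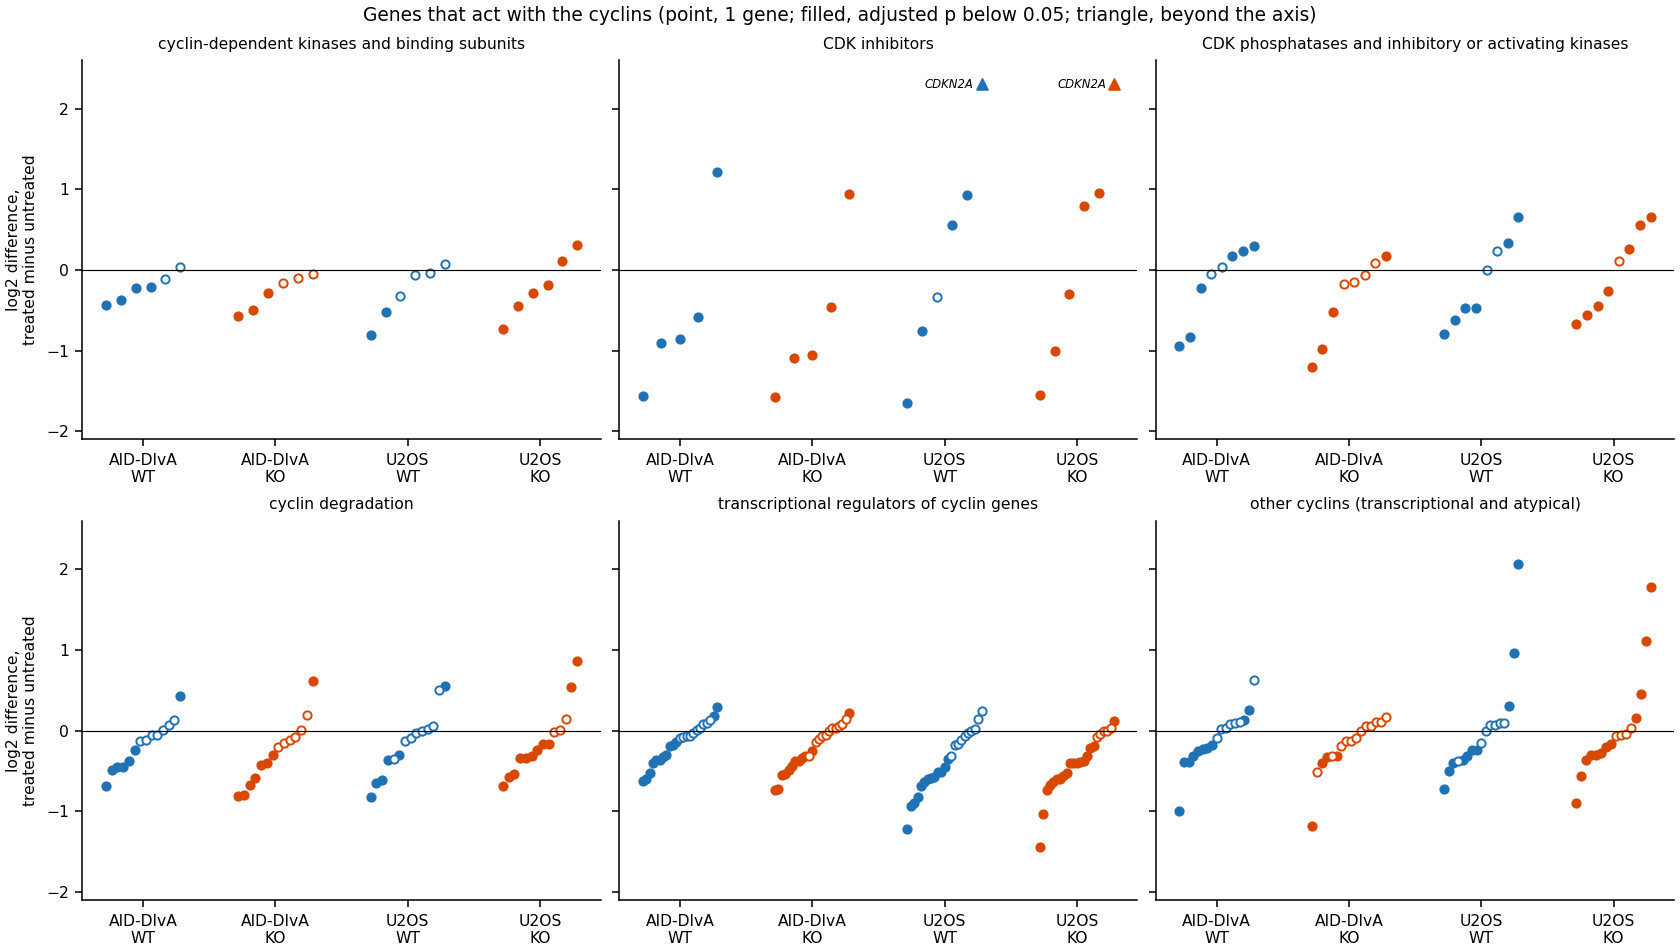
Log2 difference between mocetinostat-treated and untreated cells (y axis) of each gene in the 6 lists of genes that act with the cyclins, in the 4 treatment comparisons (x axis; AID-DIvA after recovery, U2OS before it); a point is 1 gene, filled where its adjusted p is below 0.05, and triangles mark CDKN2A, which lies beyond the axis. In the regulator list 11, 11, 13 and 17 filled points lie below 0 from left to right, and the CDK inhibitors hold filled points below -1 in all 4 comparisons.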

How the data were processed

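Stranded total RNA was sequenced in 24 libraries. The authors aligned reads with STAR to hg19 (GRCh37), counted them per gene with featureCounts and deposited read counts per gene, regardless of strand and for each strand, beside FPKM and TPM columns that were not used here. The counts used are those of either strand, so a gene and an overlapping gene on the opposite strand are not separated, and reverse-strand counts were an alternative. The total of either strand was below the reverse-strand total in every library. Counts of either strand can therefore miss reads of a gene that overlaps another. Groups came from the sample titles, since the treatment field of the AID-DIvA libraries contradicts them.

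Counts were fitted with edgeR 4.0.16 (R 4.3.3) by the robust quasi-likelihood test after TMM scaling and filterByExpr. Treatment and genotype comparisons used the 6 libraries concerned, interactions the 12 of a line and comparisons between stages all 24. P-values were adjusted over all genes tested by the Benjamini-Hochberg method, and called means an adjusted p below 0.05. FPKM values were computed from the counts, exonic lengths and library totals, without TMM factors. Total counts per library limit the precision of low genes only, and the limits given for a count of 0 (3 counts) cover counting error only. The study describes the replicates as biological and from independent experiments, and p-values measure the spread between them. The fits were tested on simulated counts with log2 changes of 0.5 and 1. Each size was given to 100 well-counted genes, of 20075, 20848 and 22285 genes in the 3 fits below. Far more genes were called in the real treatment and stage fits, so the shares describe the simulated setting only. The ID3-KO AID-DIvA treatment fit recovered 70% and 99% of them. The AID-DIvA interaction recovered 44% and 96%, and the WT comparison between stages 34% and 82%. False calls made up 8.15%, 4.76% and 4.92% of the calls of these 3 fits.

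Likeness was Pearson's r of log2 CPM (0.5 added) over 24 libraries centred within a line, among genes averaging at least 10 CPM. The members and gene lists were chosen with earlier results of these data known. Members were always named. From each list the genes named are at most 2 called higher and 2 called lower with the smallest adjusted p in each treatment comparison and interaction, and for each member averaging at least 1 CPM the 2 genes with the highest r. Alternatives were DESeq2 1.42.0, its size factors in edgeR, library totals (for levels only), reverse-strand counts, a minimum of 10 counts per library, omission of the filter, all 4 groups in one fit, a log2 threshold of 1, a replicate block and leaving out each library. TMM over all 24 libraries was added after seeing the data. Protein sequences were not used here.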

Additional observations from a re-analysis of the deposited data

Results flagged for a closer look

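Responses to mocetinostat after recovery, in AID-DIvA cells, differed from responses before it, in U2OS cells, for 5 members in WT and 6 in ID3-KO cells, by the test of the difference itself in a fit of all 24 libraries. Of all genes 22.6% were called more positive and 22.8% more negative in WT cells and 21.7% and 24.3% in ID3-KO cells, which is the background to those counts. In WT cells the difference on the log2 scale was 1.05 for CCND2, 0.97 for CCNE2, 0.37 for CCNE1 (adjusted p = 4.9e-04), -0.29 for CCND3 (adjusted p = 0.040) and -0.58 for CCNF. In ID3-KO cells it was 0.82 for CCND2, 0.63 for CCNE2, -0.25 for CCNB2 (adjusted p = 0.029), -0.29 for CCNB1 (adjusted p = 0.0060), -0.49 for CCND3 (adjusted p = 8.3e-04) and -0.72 for CCNF. CCND2, CCNE2, CCND3 and CCNF were called in the same direction in both genotypes. The stage of collection and the AsiSI vector of AID-DIvA cells change together in this comparison and cannot be told apart. Replicate 1 of untreated WT U2OS cells, which stood apart from its group, enters the WT values, and without it they were 1.005 for CCND2, 1.08 for CCNE2, 0.33 for CCNE1, -0.39 for CCND3 and -0.61 for CCNF.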

How the results depend on the processing

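Of 1800 values under alternatives, all of single members other than CCNA1, 1693 stayed on the same side of the threshold. A call was lost by 86 and gained by 21. Among the 1800, 0 values called in either fit changed direction, while 39 values called in neither changed sign. With a log2 difference beyond 1 or -1 required, 1 member was called among those lower in recovered ID3-KO cells, higher in ID3-KO among untreated and among recovered AID-DIvA cells, and more positive after recovery in WT cells, and 0 in every other count that was above 0. With no filter on low counts, 1 member was higher in recovered ID3-KO cells, 1 was lower in untreated ID3-KO than WT AID-DIvA cells and 1 had a lower AID-DIvA interaction. In the fit of all 4 groups of a line, 1 was lower in ID3-KO among untreated AID-DIvA and 1 among untreated U2OS cells, and in treated U2OS cells 2 were higher and 0 lower. DESeq2 called 2 members lower in the AID-DIvA and 1 higher in the U2OS interaction. The cause was not tested.

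Same-numbered replicates deviated together in some pairs and not in others (r from -0.57 to 0.52, with 6 of 24 above 0.1 and 10 of 24 best with their own number). With 3 libraries per group this cannot show whether same-numbered samples share an experiment. The main fits did not pair them. With the replicate block 1 member was higher in recovered ID3-KO cells, and 1 was lower in ID3-KO among untreated and 1 among recovered AID-DIvA cells, and 7 single calls were lost, those of CCND1 and CCNE1 in recovered ID3-KO cells, of CCNE1 and CCNF between untreated and of CCNA2, CCNB2 and CCNF between recovered AID-DIvA genotypes (adjusted p 0.059 to 0.10).

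Leaving out each library in turn, counts ran from 1 to 3 for members higher in recovered ID3-KO cells. Counts also ran from 1 to 3, with CCNA1 included at 3, for members higher in treated WT U2OS cells. For members lower in ID3-KO they ran from 0 to 3 in untreated and 1 to 4 in recovered AID-DIvA cells, and from 0 to 1 in untreated and treated U2OS cells, where those higher in treated cells ran from 2 to 4. Interactions ran from 0 to 1 for lower members in AID-DIvA and for higher and lower members in U2OS cells, and WT members more negative after recovery from 1 to 2. CCNE2, at 4.30 to 10.3 CPM, is the least deeply counted member with a call in the main fits, and CCNA1 is too low to rank its groups.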
